A study of Mus musculus with 12 samples.

Results

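The small RNA of the colon was compared between 3 mice given DSS and 3 control mice, which are 6 of the 12 small RNA libraries of the series, the other 6 being blood of the same mice. The libraries were chosen by the mouse numbers in their titles. DSS (dextran sulfate sodium) is a polysaccharide that injures the colon epithelium and causes a colitis used as a model of ulcerative colitis. All mice were C57BL/6 males, 8 weeks old when bought, with no allele or further agent named. DSS mice 1, 7 and 9 received 1.5% (wt/vol) DSS in their drinking water for 7 days and were sacrificed on day 8, and control mice 2, 4 and 8, of the same time course, drank water with no DSS added. The grouping is that of the study's figures, because the disease state labels mark mice 1, 2 and 4 as having colitis, and the source and tissue labels name opposite tissues. The 6 mice were selected on their disease activity index, a score of weight loss, stool consistency and bleeding, so they need not stand for every treated mouse. The colon was homogenised as a whole, so the libraries hold epithelium, muscle, stroma, nerves and immune cells together.

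MicroRNAs (miRNAs) are RNAs of about the length of the sequences printed here that guide Argonaute proteins to messenger RNAs and lower the output of those messengers. Each is cut from a hairpin, whose 5p and 3p arms can both give a mature miRNA, and neighbouring hairpins can be cut from 1 long transcript, so that a genomic cluster is made together. Target choice rests mainly on the seed, bases 2 to 8 of the mature miRNA, so miRNAs with a shared seed form a family with overlapping targets. In the intestine, miR-192, miR-194 and miR-215 mark differentiated enterocytes, the miR-200 family and the cluster of miR-183, miR-96 and miR-182 mark epithelia in general, and miR-143 and miR-145 mark smooth muscle and fibroblasts. miR-223 and miR-142 mark blood-derived cells, the first mainly granulocytes and macrophages.

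The mature sequences of the miRNAs that carry the main differences are shown with their seeds (bases 2 to 8) in capitals, as RefSeq gives them on GRCm38.p6. The first set shows the miRNAs of the 1 genomic cluster that passed the test, Mir212 and Mir132 on chromosome 11, whose 3p arms share a seed.
miR-132-3p: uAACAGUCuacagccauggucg
miR-212-3p: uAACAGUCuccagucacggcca
miR-132-5p: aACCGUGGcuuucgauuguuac
miR-212-5p: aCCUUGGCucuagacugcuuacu
The second set shows miRNAs of the enterocyte and epithelial lists, some of which fell in DSS mice, and 1 miRNA of neither list for its seed. The seeds of miR-96-5p and miR-182-5p differ only in their last base, and miR-1271-5p, from a gene elsewhere, shares the seed of miR-96-5p. miR-200b-3p, miR-200c-3p and miR-429-3p share a seed, and miR-141-3p and miR-200a-3p share another. miR-192-5p and miR-215-5p share theirs although their hairpins lie on different chromosomes.
miR-182-5p: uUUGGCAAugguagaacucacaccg
miR-96-5p: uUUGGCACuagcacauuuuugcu
miR-1271-5p: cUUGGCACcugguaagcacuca
miR-183-5p: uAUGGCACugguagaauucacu
miR-200b-3p: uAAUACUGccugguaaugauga
miR-200c-3p: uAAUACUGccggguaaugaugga
miR-429-3p: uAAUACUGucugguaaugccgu
miR-141-3p: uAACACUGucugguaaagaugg
miR-200a-3p: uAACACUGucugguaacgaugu
miR-192-5p: cUGACCUAugaauugacagcc
miR-215-5p: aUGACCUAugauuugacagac
miR-194-5p: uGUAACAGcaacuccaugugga
The third set shows families whose members did not move alike, with the seed in common.
miR-148a-3p: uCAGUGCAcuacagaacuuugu
miR-148b-3p: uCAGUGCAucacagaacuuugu
miR-152-3p: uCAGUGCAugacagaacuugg
miR-130a-3p: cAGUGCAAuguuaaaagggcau
miR-130b-3p: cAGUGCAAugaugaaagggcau
The last set shows miRNAs of immune cells and inflammation, and a few of the imprinted region on chromosome 12, where the seeds are unlike each other.
miR-223-5p: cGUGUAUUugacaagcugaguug
miR-223-3p: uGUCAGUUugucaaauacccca
miR-155-5p: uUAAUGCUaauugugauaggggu
miR-146a-5p: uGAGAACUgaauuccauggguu
miR-146b-5p: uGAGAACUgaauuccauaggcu
miR-494-3p: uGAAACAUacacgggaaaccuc
miR-493-5p: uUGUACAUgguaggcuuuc
miR-541-5p: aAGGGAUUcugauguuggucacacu
miR-379-5p: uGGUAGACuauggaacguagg
miR-434-5p: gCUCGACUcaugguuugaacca

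The libraries held 15060553 to 20106226 counts, and 542 of the 1978 miRNAs in the table passed the filter on low counts and were tested. The marker miRNAs fit the tissue: miR-143-3p alone held 25.8% to 35.8% of the counts of a library and miR-192-5p had a mean of 58727 CPM, whereas miR-451a, the defining miRNA of red cells, had 236 to 489 CPM. CPM is the count per 1000000 counts of the library after TMM scaling, which evens out differences in composition between libraries. The library of DSS mouse 9 stood apart, with the largest TMM factor (1.29, against 0.879 to 1.04 in the other libraries) and a count for 1071 miRNAs, against 943 to 975. Each value per mouse below is given in the order DSS mice 1, 7 and 9 or control mice 2, 4 and 8. A difference is called SDE when its Benjamini-Hochberg adjusted p was at most 0.05 and its fold change over 1.5 (edgeR's quasi-likelihood test), and "rose" and "fell" are used of SDE differences only.

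Of the 542 miRNAs tested, 55 (10.1%) were SDE. Of these, 32 (5.90%) rose and 23 (4.24%) fell in DSS mice, by 1.53-fold to 3.81-fold. The median log2 fold change over all 542 was 0.04. The number of calls depended on single mice. Without DSS mouse 7, or without control mouse 2, 4 or 8, edgeR's quasi-likelihood test called 0 miRNAs (149, 158, 133 and 125 miRNAs had an unadjusted p under 0.05), and with RLE or upper-quartile factors it called 16 and 8, while DESeq2 called 75. In each of these fits all 55 miRNAs kept their direction. In 209 of the 542 miRNAs (38.6%) every DSS mouse lay on the same side of every control mouse, higher in 122 (22.5%) and lower in 87 (16.1%), and all 55 SDE miRNAs were among these. All p-values rest on the spread between these 6 mice. In edgeR's test the spread of each miRNA is moderated with that of the other miRNAs.

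**Figure D1:**
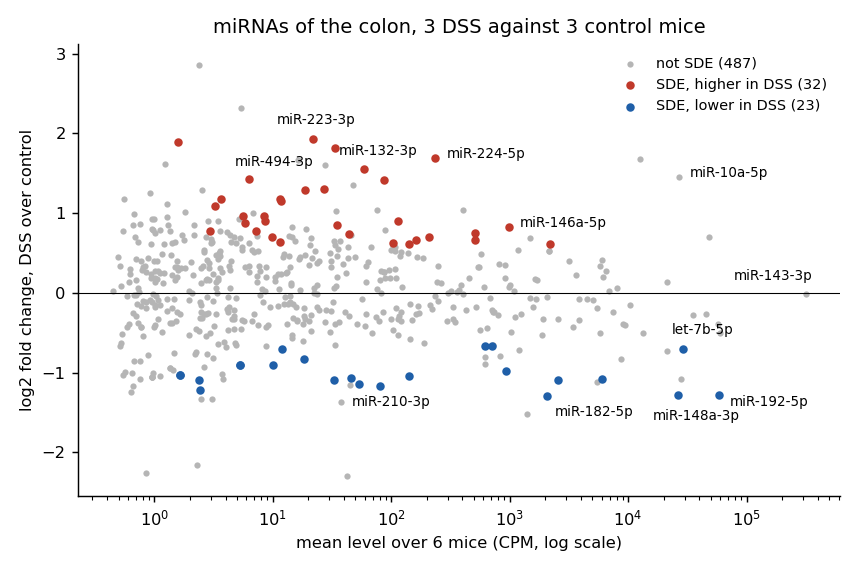
Log2 fold change of each miRNA, DSS over control mice, against its mean level over the 6 mice in CPM on a log scale. Each point is 1 of the 542 miRNAs tested, red where SDE and higher (32), blue where SDE and lower (23) and grey where not SDE (487). The 3 SDE miRNAs with a mean of 10000 CPM or more, miR-192-5p, miR-148a-3p and let-7b-5p, lie below 0.

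SDE miRNAs were found in every class of abundance. Among the 16 miRNAs with a mean of 10000 CPM or more, 3 were SDE (18.8%) and all 3 fell, while 12 of the 16 had a log2 fold change below 0 and their median was -0.34. These 16 held 78.8% to 81.3% of the counts of each library. Among the 44 miRNAs of 1000 to 10000 CPM, 1 rose and 3 fell. From 100 to 1000 CPM, 9 rose and 4 fell of 79, and from 10 to 100 CPM, 11 rose and 7 fell of 133. Below 10 CPM, 11 rose and 6 fell of 270, a share of 6.30%, with a median standard error of the log2 fold change of 0.33, against 0.16 to 0.21 in the other classes. Scaling by total counts alone moved the median of all 542 miRNAs to 0.26 and that of the most abundant class to -0.12, and turned the sign of the classes from 100 to 1000 CPM (-0.04 to 0.15) and from 1000 to 10000 CPM (-0.09 to 0.13).

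The 10 most abundant miRNAs together held 69.4%, 70.9% and 70.5% of the counts in the DSS mice and 69.5%, 68.4% and 71.1% in the control mice. The groups overlapped (difference of the means 0.591 percentage points, exact permutation test, two-sided, p = 0.7, where 3 mice against 3 cannot give a p under 0.1). miR-143-3p, the most abundant, had 345274, 343735 and 254229 CPM in the DSS mice and 329577, 275821 and 350175 CPM in the control mice, with no difference beyond their spread (log2 fold change -0.02, standard error 0.24, adjusted p = 0.961). The miRNAs outside the 100 most abundant held 1.15%, 1.23% and 1.47% of the counts in the DSS mice and 1.10%, 1.01% and 0.945% in the control mice. Here the groups did not overlap, at the smallest p the design allows (exact permutation test, two-sided, p = 0.1).

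In the most abundant class miR-192-5p, miR-148a-3p and let-7b-5p fell. miR-192-5p, which marks enterocytes, had 50042, 29036 and 23304 CPM in the DSS mice and 71675, 90844 and 87463 CPM in the control mice. Every DSS mouse was below every control mouse, and DSS mouse 9 was the lowest (log2 fold change -1.29, standard error 0.31, adjusted p = 0.0491). miR-148a-3p, which is abundant in secretory and digestive epithelia, had 23199, 13936 and 9406 CPM against 40649, 37776 and 34444 CPM, with the same order of the DSS mice (log2 fold change -1.28, standard error 0.32, adjusted p = 0.0491). miR-200b-3p, which keeps epithelial cells from becoming mesenchymal by repressing Zeb1 and Zeb2, had 26754, 16409 and 10859 CPM against 34396, 43488 and 36754 CPM. Its groups did not overlap either, but it missed the threshold (log2 fold change -1.09, standard error 0.33, adjusted p = 0.0764). miR-21a-5p, which inflammation and injury induce in many tissues, went the other way without passing, with 56903, 45923 and 75923 CPM against 35636, 39404 and 35047 CPM (log2 fold change 0.70, adjusted p = 0.0863).

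Of the 7 enterocyte miRNAs tested, 3 fell and 0 rose, where 4.24% of all miRNAs tested fell. All 7 had log2 fold changes below 0 under each scaling, and their median was -1.04, against 0.04 over all miRNAs tested. They summed to 80941, 46321 and 35284 CPM in the DSS mice and 103543, 129235 and 122400.00 CPM in the control mice. In whole colon, fewer enterocytes and less of a miRNA per enterocyte cannot be told apart, and this holds for each cell type below. miR-194-5p had 5442, 3479 and 2599 CPM against 7356, 9275 and 7699 CPM and miR-194-2-3p had 103, 91.9 and 85.0 CPM against 132, 208 and 236 CPM (log2 fold changes -1.08 and -1.04, adjusted p = 0.0491 and 0.0431). miR-194-5p comes from a hairpin beside Mir192 on chromosome 19 (chr19:6264658-6264679) and from another beside Mir215 on chromosome 1 (chr1:185313325-185313346), and its reads do not tell them apart. The 3p arms do. miR-194-2-3p, of chromosome 19, fell, while miR-194-1-3p, of chromosome 1, had 112, 48.5 and 40.2 CPM against 67.8, 78.6 and 101 CPM with overlapping groups (log2 fold change -0.30, standard error 0.39, adjusted p = 0.625). Likewise miR-215-5p, of chromosome 1, overlapped, with 25019, 13525 and 9172 CPM against 24092, 28632 and 26629 CPM. Its DSS mouse 1 lay within the range of the controls, and DSS mice 7 and 9 lay below it. The difference between both loci was not tested.

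Of the 16 epithelial miRNAs of the wider list, 5 fell (4.24% of all miRNAs tested did) and 0 rose. Of the 16, 15 had log2 fold changes below 0 (14 with total counts alone), as had 258 of all 542, and the median of the 16 was -0.94. The exception with TMM factors, miR-205-5p, had 177, 155 and 6.58 CPM in the DSS mice and 51.9, 72.0 and 71.4 CPM in the control mice. Its DSS mice 1 and 7 lay above all controls and DSS mouse 9 below them (log2 fold change 0.79, standard error 0.92). All 20 entries of the list, tested or not, summed to 47486, 29874 and 21138 CPM in the DSS mice and 60492, 75836 and 65605 CPM in the control mice, without overlap. The cluster of Mir182, Mir96 and Mir183 (chr6:30165918-30169737, minus strand) gave 3 of these calls. miR-182-5p had 1697, 1089 and 850.3 CPM in the DSS mice and 2662, 3063 and 3167 CPM in the control mice (log2 fold change -1.29, standard error 0.25, adjusted p = 0.0431). miR-183-5p had 2251, 1344 and 1263 CPM against 3073, 3454 and 3859 CPM, and miR-96-5p had 37.3, 25.5 and 25.3 CPM against 56.1, 67.9 and 61.3 CPM (log2 fold changes -1.10 and -1.07, adjusted p = 0.0431 for both). In all 3 the control mice were above all DSS mice, and DSS mouse 1 was the highest of the DSS mice. As a sum of its 6 tested arms the cluster had 3999, 2495 and 2175 CPM against 5593, 6358 and 7374 CPM, and just missed the threshold (log2 fold change -1.16, standard error 0.25, adjusted p = 0.0612). In the cluster of miR-200b, miR-200a and miR-429 (chr4:156053905-156055750), all 5 tested arms had log2 fold changes from -1.12 to -0.80. Of these, miR-429-3p fell, with 736, 594 and 531 CPM against 1086, 1434 and 1164 CPM (log2 fold change -0.98, standard error 0.17, adjusted p = 0.0431). miR-141-3p, of the cluster with miR-200c (chr6:124717914-124718390), whose 3 tested arms were all below 0, fell from 111, 124 and 101 CPM in the control mice to 69.9, 46.5 and 33.7 CPM in the DSS mice (log2 fold change -1.17, adjusted p = 0.0471).

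**Figure D2:**
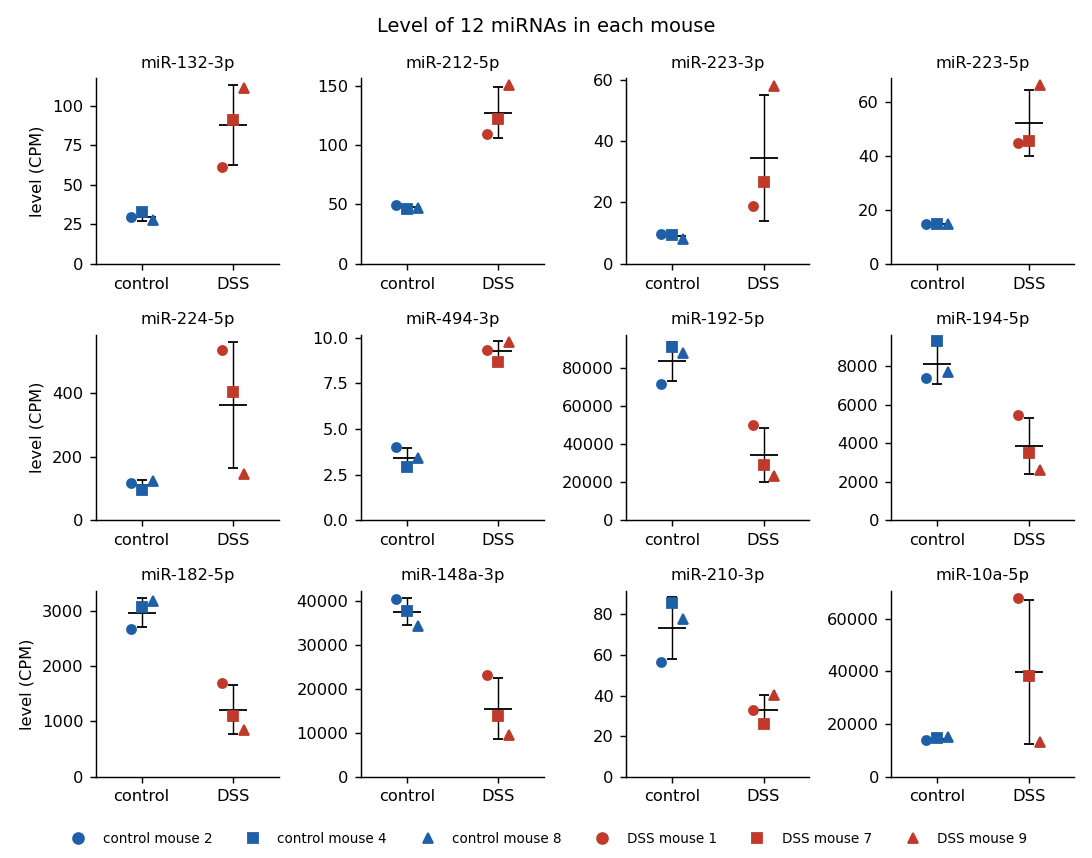
Level of 12 miRNAs in CPM in each mouse, with control mice in blue and DSS mice in red, symbols for the mice, and bars for the mean and SD of each group (n = 3). The groups do not overlap in 11 of the panels, and in miR-10a-5p DSS mouse 9, at 13135 CPM, lies below the control mice.

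The largest rises among miRNAs of at least 10 CPM were those of miR-223-3p, miR-223-5p, miR-224-5p, miR-132-3p and miR-212-5p. miR-223-3p had 19.0, 26.8 and 57.9 CPM in the DSS mice and 9.66, 9.42 and 8.15 CPM in the control mice, and DSS mouse 9 was far above the other DSS mice (log2 fold change 1.93, standard error 0.41, adjusted p = 0.0431). Without DSS mouse 9 its log2 fold change was 1.33. Its 5p arm differed less between the DSS mice, with 44.9, 45.5 and 66.3 CPM against 14.7, 14.9 and 14.9 CPM, and had the smaller error (log2 fold change 1.82, standard error 0.20, adjusted p = 0.0147). miR-224-5p, of a hairpin on chromosome X in an intron of the gene for a GABA receptor subunit, had 536, 403 and 146 CPM against 118, 95.6 and 123 CPM. There the order of the DSS mice was reversed, and DSS mouse 9 lay just above the controls (log2 fold change 1.69, standard error 0.43, adjusted p = 0.0491).

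The myeloid list held 4 tested miRNAs, of which 2 rose, where 5.90% of all miRNAs tested rose, with a median of 1.71. The 2 are the arms of 1 hairpin, that of miR-223. Its other members, both arms of miR-142a, varied with the mouse. miR-142a-3p had 21.5, 30.2 and 73.3 CPM against 15.3, 15.8 and 10.2 CPM and miR-142a-5p had 283, 427 and 925 CPM against 214, 339 and 241 CPM, and neither passed the test (adjusted p = 0.0728 and 0.149). The list summed to 368, 529.8 and 1123 CPM in the DSS mice and 253, 379 and 274 CPM in the control mice, so DSS mouse 1 was below control mouse 4. Of the 5 inflammation-induced miRNAs, 2 rose (5.90% of all miRNAs tested did) and 5 had log2 fold changes above 0, as had 284 of all 542 (median 0.83). miR-155-5p, which activated macrophages and lymphocytes make, had 16.3, 24.6 and 38.2 CPM against 8.93, 13.0 and 10.5 CPM, and miR-146a-5p, which dampens signalling from Toll-like receptors, had 1021, 1385 and 1366 CPM against 615, 854 and 656 CPM. Their log2 fold changes were 1.29 and 0.83 (standard errors 0.33 and 0.18, adjusted p = 0.0491 and 0.0431). miR-146b-5p, with the same seed as miR-146a-5p, had 1588, 1506 and 2359.5 CPM against 987, 1238 and 1174 CPM, without overlap, and did not pass (adjusted p = 0.0739). Among the 8 lymphocyte miRNAs and the 6 erythroid miRNAs 0 were SDE, with medians of 0.16 and 0.05, and the latter was -0.01 with RLE and -0.07 with upper-quartile factors.

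The other cell type lists held 1 SDE miRNA between them. Of the 12 stromal miRNAs, 1 rose, miR-199a-5p, with 2608, 2562 and 2799 CPM against 1894, 1686 and 1622 CPM (log2 fold change 0.62, standard error 0.12, adjusted p = 0.0431). This is 1 of 12 where 5.90% of all miRNAs tested rose. miR-199a-3p and miR-199b-3p had adjusted p = 0.0431 without reaching the fold limit. Both have the same seed and nearly equal levels in every mouse (2285 and 2275 CPM in DSS mouse 1). They may be largely the same reads under both names. The list's median was 0.18, and 7 of its 12 members were above 0 and 12 with total counts alone. Of the 4 smooth muscle miRNAs 0 were SDE (median -0.05, and 0.16 with total counts alone), and of the 5 striated muscle miRNAs 0 were, with all 5 below 0 under each scaling (median -0.36). The smooth muscle miR-145a-5p spread widely, with 233, 1623 and 323 CPM against 1008, 645 and 4576 CPM (log2 fold change -1.52, standard error 0.97). Its 3p arm had 4114 to 4739 CPM over the 6 mice. Both endothelial miRNAs, the arms of miR-126a, had log2 fold changes above 0 and groups that did not overlap, without being SDE, and miR-126a-3p, which vessel walls make, had 7211, 6818 and 6719 CPM against 5452, 5044 and 5066 CPM (adjusted p = 0.0645). The 7 neural miRNAs (median 0.32), the 4 enteroendocrine miRNAs (median 0.21, and -0.24 without DSS mouse 1) and the 1 liver miRNA also gave 0 calls. miR-375-3p, of enteroendocrine cells, spread more among the DSS mice, at 14368, 7779.6 and 2752 CPM, than among the control mice, at 7329.7, 8829 and 7762 CPM. miR-122-5p, of hepatocytes, had 104, 25.5 and 8.28 CPM against 15.0, 15.9 and 36.6 CPM, and its log2 fold change of 1.03 rested on DSS mouse 1, since it was -0.43 without that mouse. miR-217-5p and miR-216b-5p, of the pancreatic acinus, had log2 fold changes of -2.16 and -2.26 without being SDE (adjusted p = 0.0749 and 0.129), a median of -2.21, and all 6 entries of their list, tested or not, summed to 0.788, 2.37 and 0.503 CPM against 5.73, 2.90 and 8.27 CPM. These are low counts, 9 to 85 a library for miR-217-5p, and the groups overlapped for both miRNAs.

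miRNAs that lie within the Hox clusters, whose genes pattern the body axis, split in direction. miR-10a-5p had 67699, 38095 and 13135 CPM in the DSS mice and 13830.5, 14572 and 14885 CPM in the control mice, and DSS mouse 9 was below all controls while the other DSS mice were far above them (log2 fold change 1.46, standard error 0.52, adjusted p = 0.111). miR-196b-5p fell, with 412, 459 and 575 CPM against 673, 874 and 755 CPM, and DSS mouse 9 was the closest to the controls (log2 fold change -0.67, standard error 0.17, adjusted p = 0.0491). Of the 8 Hox miRNAs tested, 1 was SDE (10.1% of all miRNAs tested were) and 5 had log2 fold changes above 0. miR-210-3p, the miRNA that hypoxia induces through HIF-1 alpha in many cells, fell. It had 33.0, 25.8 and 40.2 CPM against 56.4, 85.6 and 77.8 CPM (log2 fold change -1.15, standard error 0.23, adjusted p = 0.0431). Its 5p arm, at 0.502, 2.09 and 1.59 CPM against 1.87, 2.17 and 6.71 CPM, overlapped.

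**Figure D3:**
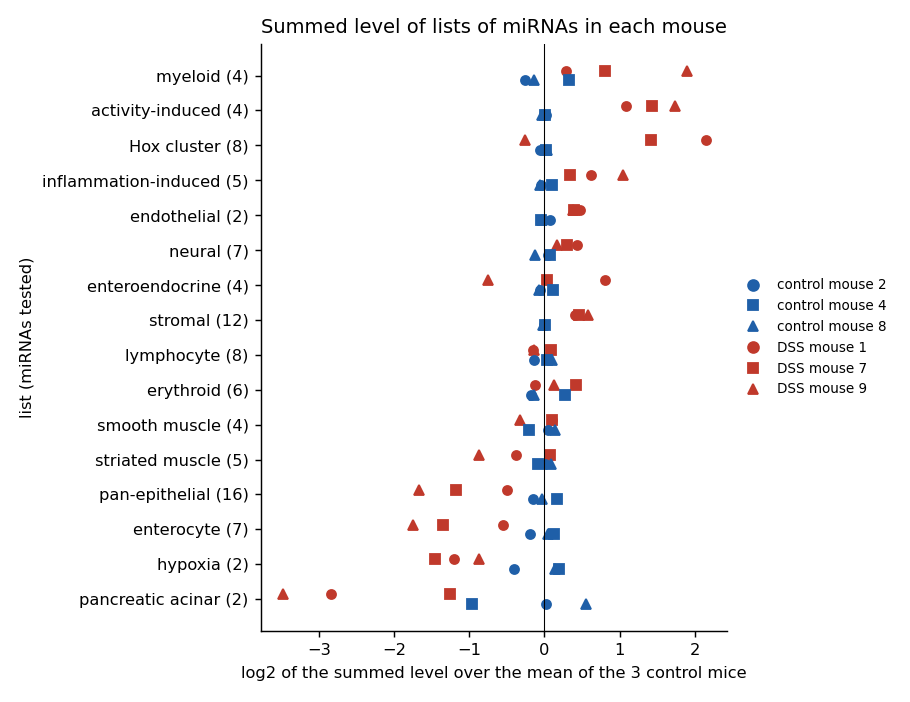
Summed level of all entries, tested or not, of each list with at least 2 tested miRNAs in each mouse, as the log2 ratio to the mean of the 3 control mice, with control mice in blue, DSS mice in red and symbols for the mice. The number of tested miRNAs is in brackets. In the enterocyte and pan-epithelial lists all 3 DSS mice lie left of the control mice with DSS mouse 9 farthest, and in the Hox cluster list DSS mouse 9 lies left of 0 and the other DSS mice right of it.

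The DSS mice differed among themselves in the size of these differences. DSS mouse 9 had the lowest summed level of the enterocyte and pan-epithelial lists and the highest of the myeloid and inflammation-induced lists, and DSS mouse 1 was the DSS mouse nearest to the controls in the enterocyte, pan-epithelial and myeloid lists. Over single miRNAs this was not general. Of the 32 miRNAs that rose, 12 were highest in DSS mouse 1, 5 in DSS mouse 7 and 15 in DSS mouse 9, and of the 23 that fell, 5, 6 and 12 were lowest in these mice. Over all 542 miRNAs, 382, 390 and 401 lay outside the range of the controls in DSS mice 1, 7 and 9. Both other DSS mice were above all controls while DSS mouse 1 was not in 38 miRNAs, against 20 for DSS mouse 7 and 26 for DSS mouse 9. The library of DSS mouse 9 also had the largest TMM factor, and its part in these orders was not tested.

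For the genomic clusters, hairpins at most 10 kb apart on a strand were joined and the counts of their arms were summed. A miRNA with hairpins in more than 1 cluster, or also outside one, was kept as its own feature and is in no sum. The sums have TMM factors of their own, so they may differ slightly from the added levels of the arms. Adjusted p-values were taken over all 401 features of this fit, clusters and single miRNAs together. Of 46 clusters tested, 1 was SDE (2.17%), the pair Mir212 and Mir132 (chr11:75173388-75173747, plus strand). This pair is transcribed in response to neuronal activity and to CREB signalling, and also in activated immune cells. Its arms summed to 199, 258 and 319.6 CPM in the DSS mice and 91.8, 91.5 and 95.7 CPM in the control mice, so the lowest DSS mouse was more than 100 CPM above the highest control (log2 fold change 1.48, standard error 0.19, adjusted p = 0.0253). All 4 arms rose. miR-132-3p had 61.3, 90.9 and 111 CPM against 29.5, 32.7 and 27.6 CPM and miR-132-5p had 26.6, 39.5 and 49.3 CPM against 15.3, 15.4 and 16.1 CPM (log2 fold changes 1.55 and 1.30, adjusted p = 0.0422 and 0.0431). miR-212-5p had 109, 122 and 151 CPM against 49.6, 46.4 and 47.4 CPM and miR-212-3p had 1.86, 2.59 and 3.10 CPM against 0.800, 0.302 and 0.940 CPM (log2 fold changes 1.41 and 1.89, adjusted p = 0.0147 and 0.0431). In each arm DSS mouse 9 was the highest and DSS mouse 1 the lowest of the DSS mice, with no overlap with the controls. The cluster's adjusted p was 0.105 to 0.190 without DSS mouse 7 or any 1 control mouse and 0.0615 without its most abundant arm, while its log2 fold change stayed between 1.30 and 1.70 over these and the other alternatives with this grouping.

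The largest group of linked miRNAs lay in the imprinted Dlk1-Dio3 region of chromosome 12, whose miRNAs are cut from long noncoding RNAs expressed from the maternal chromosome and are best known from embryo, placenta and brain. Its clustered hairpins fell into 3 stretches between 109563692 and 109747960 of GRCm38.p6, and hairpins of this span outside the stretches were left out. The 3 stretches held 58 tested miRNAs. Of these, 15 rose and 0 fell, where 5.90% of all miRNAs tested rose, and 57 of the 58 had a log2 fold change above 0, where 284 of all 542 had. Their median was 0.61, against 0.04 over all miRNAs tested and -0.05 over the 484 outside the region, and in 40 of the 58 all DSS mice lay above all control mice, where 22.5% of all miRNAs tested did. The exception, miR-667-3p, rested on few counts and had 0.430, 1.63 and 0.619 CPM against 1.000, 0.423 and 1.44 CPM. The region summed to 4847, 4207 and 4072 CPM in the DSS mice and 2999, 2658 and 2893 CPM in the control mice. Under the other scalings, and with any 1 mouse left out, 56 to 58 of the 58 had log2 fold changes above 0. These miRNAs share transcripts, so they are not independent of each other. The sums of the stretches missed the threshold, at adjusted p = 0.0612 for the stretch of miR-379 (log2 fold change 0.69, standard error 0.13) and for the stretch of miR-127 (log2 fold change 0.60, standard error 0.12).

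Single miRNAs of the region spanned low and high levels. miR-494-3p, in the stretch of miR-379, had 9.31, 8.68 and 9.79 CPM against 4.0, 2.90 and 3.38 CPM and the largest rise of the region (log2 fold change 1.43, standard error 0.18, adjusted p = 0.0168). miR-379-5p, the first of its stretch, had 767, 603 and 521 CPM against 397, 375 and 418 CPM, and miR-541-5p, near the other end, had 817, 541 and 560.3 CPM against 400.3, 372 and 363 CPM (log2 fold changes 0.67 and 0.76, adjusted p = 0.0491 and 0.0491). In these 2 DSS mouse 1 was the highest, and in both every DSS mouse was above every control. miR-134-5p, which is known from dendrites of neurons, had 46.4, 43.9 and 44.4 CPM against 28.3, 19.4 and 27.0 CPM (log2 fold change 0.85, adjusted p = 0.0431). miR-409-5p rose with its 3p arm, and so did both arms of miR-369 and miR-379 (log2 fold changes from 0.63 to 0.90). miR-299a-3p, also of this stretch, had 9.17, 10.3 and 8.01 CPM against 5.60, 4.29 and 6.14 CPM (adjusted p = 0.0491). miR-341-3p, of the short stretch between the others, had 12.2, 8.12 and 12.9 CPM against 6.40, 5.62 and 5.08 CPM (log2 fold change 0.96, adjusted p = 0.0471). In the stretch of miR-127, miR-434-5p had 285, 228 and 266 CPM against 174, 148 and 157 CPM, and its other arm, miR-434-3p, had 177, 165 and 171 CPM against 126, 106 and 105 CPM (adjusted p = 0.0431 and 0.0431). miR-337-5p had 53.8, 55.9 and 55.1 CPM against 34.0, 32.7 and 32.4 CPM, and miR-493-5p had 8.53, 7.10 and 6.66 CPM against 4.33, 3.08 and 4.01 CPM (log2 fold changes 0.73 and 0.96, adjusted p = 0.0431 for both). miR-127-3p, the most abundant of the region, had 1481, 1401 and 1267 CPM against 997, 853 and 1015 CPM. It passed the adjusted p (0.0475) but not the fold limit, with a log2 fold change of 0.53. Of the 15 that rose, 8 were highest in DSS mouse 1, 4 in DSS mouse 7 and 3 in DSS mouse 9.

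**Figure D4:**
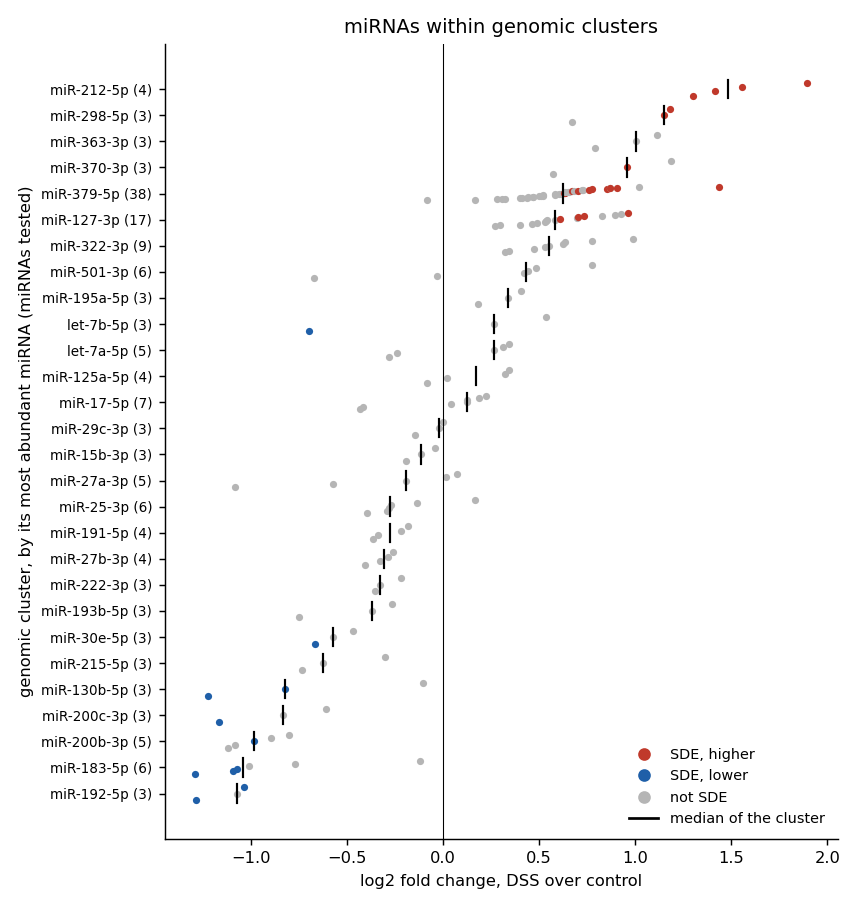
Log2 fold change, DSS over control mice, of each tested miRNA in the 28 genomic clusters with at least 3 tested miRNAs, ordered by the cluster's median (black bar) and named by the most abundant miRNA, with the number tested in brackets. Red and blue mark SDE miRNAs, higher and lower. In 20 of the 28 clusters all have the same sign.

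Over all clusters, those above included, the members had the same sign in 25 of the 35 with at least 2 tested miRNAs. Among miRNAs assigned to a cluster 33 of 187 tested were SDE (17.6%), and among all others 22 of 355 (6.20%). The 355 include 29 miRNAs with hairpins at more than 1 place, such as miR-194-5p, and 76 with no RefSeq entry. Some of them may come from clusters, so the shares do not compare clustered with unclustered miRNAs. Of the 33, 15 are those of the Dlk1-Dio3 region. The cluster of Mir296 and Mir298 on chromosome 2 (chr2:174267047-174267585), an imprinted locus of the Gnas complex, had 27.9, 31.2 and 50.2 CPM in the DSS mice and 15.4, 18.1 and 16.2 CPM in the control mice, without overlap (log2 fold change 1.14, standard error 0.26, adjusted p = 0.0614). Of its 3 tested arms 2 rose, where 5.90% of all miRNAs tested rose. All 9 tested arms of the cluster of Mir322 and Mir503 on chromosome X had log2 fold changes above 0, from 0.32 to 0.99, and 0 were SDE. On chromosome X as a whole 32 of 41 miRNAs had log2 fold changes above 0 and 3 (7.32%) rose, both arms of miR-223 and miR-224-5p, where 284 of all 542 were above 0 and 5.90% rose. The cluster of Mir30e and Mir30c-1 had 1106, 1026 and 1000.1 CPM against 1479, 1450.5 and 1654 CPM (log2 fold change -0.55, standard error 0.11, adjusted p = 0.0612), and its miR-30e-5p fell. The cluster of miR-17 to miR-92a, which growing cells express, had a median of 0.12 over 7 tested arms (-0.16 without DSS mouse 9), and 0 were SDE.

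For the seed families, the counts of miRNAs with the same bases 2 to 8 were summed, again with TMM factors of their own. Of 443 families tested, 13 were SDE (2.93%), 5 higher (1.13%) and 8 lower (1.81%), and of the 63 families with at least 2 tested members 2 were SDE (3.17%). The first of these was the seed AACAGUC of miR-132-3p and miR-212-3p, which summed to 60.8, 93.9 and 114 CPM in the DSS mice and 31.7, 34.5 and 27.7 CPM in the control mice (log2 fold change 1.52, standard error 0.25, adjusted p = 0.0423). The other was the seed UUGGCAC of miR-96-5p and miR-1271-5p, which had 43.6, 44.8 and 40.8 CPM against 69.7, 86.9 and 69.4 CPM (log2 fold change -0.81, standard error 0.15, adjusted p = 0.0495). Its members differed. miR-96-5p fell, while miR-1271-5p had 7.95, 19.1 and 15.6 CPM against 10.5, 15.3 and 10.1 CPM, with overlap (log2 fold change 0.25, standard error 0.34). The other SDE families had 1 tested member each. miR-494-3p, miR-132-5p, miR-212-5p and miR-223-5p rose, and among those that fell were miR-187-3p, miR-182-5p, miR-210-3p, miR-183-5p and miR-194-2-3p. miR-187-3p had 7.24, 7.10 and 6.77 CPM against 13.4, 12.6 and 13.7 CPM (log2 fold change -0.91, standard error 0.14, adjusted p = 0.0427). The remaining calls were the seeds of miR-467a-5p and miR-467b-5p, which have equal counts in every library and cannot be told apart here.

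In some families members with a shared seed, printed above, differed in size or sign. In the family of miR-148 and miR-152 (seed CAGUGCA), miR-148a-3p fell as given above, while miR-148b-3p had 474, 400.2 and 328 CPM against 487, 460.1 and 444 CPM and miR-152-3p had 1129, 1106 and 847 CPM against 871, 722 and 826 CPM. Both overlapped, with log2 fold changes of -0.21 and 0.35 (standard errors 0.15 and 0.15). Since miR-148a-3p held 95.2% of the counts, the family as a sum followed it (log2 fold change -1.26, standard error 0.30, adjusted p = 0.0548). In the family of miR-130 (seed AGUGCAA), miR-130b-3p fell, with 1.58, 1.13 and 1.70 CPM against 3.20, 3.44 and 3.70 CPM, and miR-130a-3p had 8.02, 8.74 and 8.71 CPM against 7.87, 6.82 and 6.33 CPM, on the other side of 0 and without overlap (log2 fold changes -1.22 and 0.28, standard errors 0.24 and 0.16). In the family of miR-17 (seed AAAGUGC) the members from chromosome X, miR-20b-5p and miR-106a-5p, had log2 fold changes of 1.11 and 0.79, against -0.29 for miR-93-5p, -0.28 for miR-106b-5p, 0.18 for miR-17-5p and 0.04 for miR-20a-5p, with 0 SDE. No test of the differences between members was made.

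All 3 members of the miR-200b family had log2 fold changes from -1.09 to -0.84, and they summed to 34604, 22906 and 15890.5 CPM against 47105, 60214 and 47710.2 CPM, without overlap (adjusted p = 0.0645). In the family of miR-192 and miR-215 the sum had 72318, 42775 and 32380.2 CPM against 100180.00, 124725 and 110867 CPM (log2 fold change -1.19, adjusted p = 0.0636). Of the 10 let-7 miRNAs, which restrain growth genes in differentiated cells, 9 had log2 fold changes below 0 with TMM factors and 6 with total counts alone. Over all miRNAs tested 258 of 542 were below 0 with TMM factors. Of the 10, 1 fell (4.24% of all miRNAs tested did), let-7b-5p, with 25055, 21968 and 19424 CPM against 31248, 38539.6 and 38103 CPM (log2 fold change -0.70, standard error 0.17, adjusted p = 0.0491). let-7c-5p came next, with 55092, 51282 and 40871 CPM against 59737, 69786 and 79863 CPM (log2 fold change -0.51, adjusted p = 0.138), then let-7k (-0.48), let-7a-5p (-0.28) and let-7f-5p (-0.27), also not SDE. let-7i-5p had a log2 fold change of 0.13. Members of the let-7 family differ by few bases, so reads may have been counted for a neighbour. Of the 6 tested members of the miR-30 family (seed GUAAACA), 5 had log2 fold changes below 0, and 4 with total counts alone. The exception with TMM factors, miR-384-5p, had 5.80, 5.75 and 4.68 CPM against 2.87, 4.29 and 3.26 CPM, without overlap (log2 fold change 0.64, standard error 0.22, adjusted p = 0.0997). Of the 6, 1 was SDE (10.1% of all miRNAs tested were), miR-30e-5p, which fell, with 522, 511 and 627 CPM against 944, 824 and 865 CPM (log2 fold change -0.67, standard error 0.13, adjusted p = 0.0431).

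Between the arms, 35 of 253 5p miRNAs were SDE (13.8%) and 20 of 241 3p miRNAs (8.30%). In 138 hairpins both arms were tested, and in 111 of them (80.4%) both had the same sign. Across these hairpins, which are not independent replicates, Pearson's r of the log2 fold changes of both arms was 0.816, with the same libraries behind each pair. In 9 hairpins both arms were SDE, always in the same direction, namely miR-223, miR-132, miR-212, miR-379, miR-369, miR-409 and miR-434, which rose, and miR-148a and miR-130b, which fell. In 14 hairpins 1 arm was SDE, and the other arm had the same sign in 13 of them. The exception was let-7b, where let-7b-5p fell and let-7b-3p had 6.09, 8.96 and 4.68 CPM against 5.53, 4.17 and 3.89 CPM (log2 fold change 0.54, standard error 0.28).

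**Figure D5:**
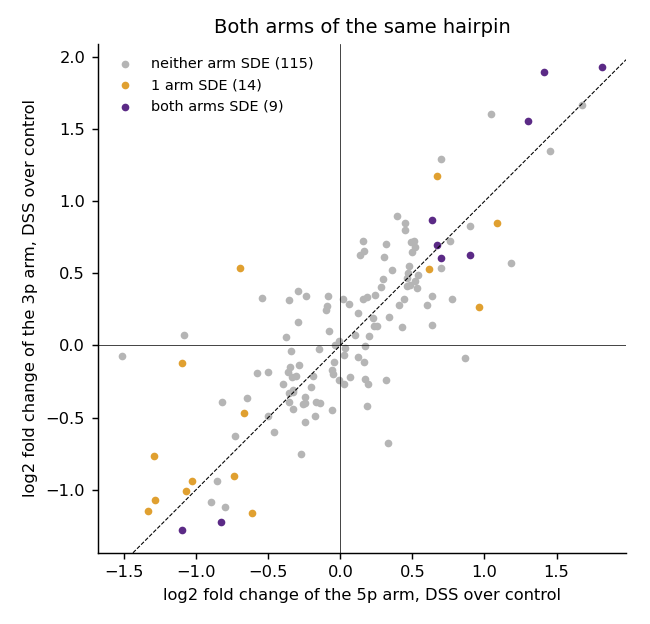
Log2 fold change, DSS over control mice, of the 3p arm against that of the 5p arm for the 138 hairpins with both arms tested. Purple marks hairpins with both arms SDE (9), orange those with 1 arm SDE (14 with both arms tested), grey the rest, and the dashed line equal change. The purple points lie near the line, and most points lie in the lower left and upper right.

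The ratio of the arms within a library was tested in 139 hairpins, which needs no scaling between libraries. It changed in 0 of them (0.00%) with edgeR's quasi-likelihood test, with an unadjusted p under 0.05 in 6 and a smallest adjusted p of 0.290, and in 0 with limma, with an unadjusted p under 0.05 in 5. In 15 (10.8%) the ratios of the groups did not overlap. For miR-185 the 5p arm gave 97.5, 97.4 and 97.4% of the counts of both arms in the DSS mice and 98.4, 98.4 and 98.3% in the control mice, without overlap (log2 change of the ratio -0.68, standard error 0.16, adjusted p = 0.290). The log2 fold changes of its arms were -0.36 for miR-185-5p and 0.31 for miR-185-3p. For let-7b the log2 ratio changed by -1.21 (standard error 0.30, adjusted p = 0.290), where the 5p arm gave 99.96% to 99.99% of the counts in every library. For miR-183, where the 3p arm rests on 11 to 23 counts a library, it changed by -1.04 (standard error 0.30, adjusted p = 0.397). The next by p were miR-17, miR-142a and miR-26b, with changes of 0.61, -0.53 and 0.40 (adjusted p = 0.783 for each). In miR-17, the 5p arm gave 98.5, 97.4 and 97.3% of the counts in the DSS mice and 96.6, 96.5 and 96.6% in the control mice. Over the whole library the 5p arms held 51.7% to 54.7% of the counts in the DSS mice and 50.6% to 56.3% in the control mice (exact permutation test, two-sided, p = 1).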

How the data were processed

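Small RNA of whole colon (miRNeasy extraction) was sequenced on an Illumina instrument, 1 library a mouse. The authors trimmed reads with Flexbar, collapsed them with the fastx-toolkit, counted them per mature miRNA with miRDeep2 2.0.1.0 against miRBase 22, and deposited the counts, which are whole numbers with no normalization. The deposited normalized signal is these counts divided by DESeq2 1.22.2 size factors. The genome build in the submitters' processing notes is GRCm38.

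The 6 colon libraries held 15060553 to 20106226 counts, which limit counting error only, and the 6 blood columns were not used. Counts were filtered with filterByExpr (minimum count 10), scaled with TMM and tested with the quasi-likelihood test of edgeR 4.0.16 in R 4.3.3. Benjamini-Hochberg adjustment ran over all miRNAs or seed families tested. For the clusters it ran over 401 features, the clusters and the miRNAs kept as features of their own. Standard errors were taken from the log2 fold change and the square root of F. Clusters joined RefSeq hairpins (GRCm38.p6) at most 10 kb apart on a strand, and 1679 of the 1978 miRNA names matched RefSeq. The arm ratio was the interaction of arm and group in hairpins with a mean count of at least 10 in each arm. Tests were also run on simulated counts with the same dispersion for all miRNAs and no shifts of single mice. That check therefore does not cover such shifts. Alternatives were other scaling factors, DESeq2 1.42.0, limma 3.58.1 on log2(signal + 1), other filters, each mouse left out, and the grouping of the disease state labels.

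The miRNAs and lists were chosen with earlier results of these data known. Named miRNAs were the 5 largest SDE rises and falls of at least 10 CPM with their other arms, the 10 most abundant, the SDE and most abundant members of the marker lists, SDE members of clusters with 3 or more SDE miRNAs, and both arms of the 6 hairpins with the smallest p for a changed arm ratio. Clusters and seed families were named where SDE. miR-194-1-3p, miR-200a-3p, miR-200c-3p, miR-205-5p, miR-215-5p, miR-142a-5p, both arms of miR-145a, miR-146b-5p, miR-1271-5p, miR-148b-3p, miR-152-3p, both miR-130 miRNAs, miR-30e-5p, miR-384-5p, miR-199a-3p, miR-199b-3p, miR-216b-5p, miR-127-3p, miR-341-3p, miR-667-3p, the miR-17 and let-7 families apart from let-7b, and the clusters that were not SDE were chosen after their values were seen.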

Additional observations from a re-analysis of the deposited data

How the results depend on the processing

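The count of SDE miRNAs (55) was 16 (6 higher, 10 lower) with RLE factors, 8 (4 and 4) with upper-quartile factors, 47 (38 and 9) with total counts alone, 75 with DESeq2, 37 with limma on the deposited signal, 0 to 44 with 1 mouse left out, 0 with the grouping of the disease state labels (20 at an unadjusted p under 0.05), 76 without a filter, 51 with at least 10 counts in every library, 54 with each sequence counted once and 53 with robust dispersions. Of the 55, 16, 8, 36 and 48 were called again with RLE factors, upper-quartile factors, total counts alone and DESeq2. The 1 SDE cluster became 2 with upper-quartile factors, 5 with total counts alone, 14 with DESeq2, 0 to 11 with 1 mouse left out, 0 with the grouping of the labels and 0 without the most abundant member of each. The 13 SDE seed families became 44 with total counts alone, 66 with DESeq2, 0 to 34 with 1 mouse left out, 0 with the grouping of the labels, 7 with bases 2 to 7 as the seed and 4 without the most abundant member. The arm ratio changed in 0 hairpins in edgeR under each alternative, with 4 to 12 at an unadjusted p under 0.05. The difference in the share of the 10 most abundant miRNAs ranged from -0.043 (without control mouse 4) to 1.32 percentage points with 1 mouse left out. For the named miRNAs, the other scalings, DESeq2 and each mouse left out were compared with the main fit. Of these values 394 kept direction and call, 251 lost the call, 10 gained it and 15 turned direction. The grouping of the labels is not among them, and with it only 2 of the 55 SDE miRNAs kept their direction. With total counts alone miR-143-3p had a log2 fold change of 0.18, miR-26b-5p 0.18, miR-181a-5p 0.14 and miR-183-3p 0.11. miR-375-3p had -0.0013 with RLE factors, -0.088 with upper-quartile factors and -0.014 with DESeq2. With 1 mouse left out the log2 fold change of miR-122-5p ranged from -0.43 to 1.56, of miR-375-3p from -0.62 to 0.47, of miR-143-3p from -0.13 to 0.11, of miR-26b-5p from -0.18 to 0.073 and of miR-183-3p from -0.22 to 0.035. The causes of these changes were not tested. No paired analysis was possible because DSS mice 1, 7 and 9 and control mice 2, 4 and 8 share no number. The abundance classes were described without a test, and the low counts below 10 CPM limit what could be called there.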

Other observations

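The SDE miRNAs described so far leave a few that belong to none of the groups above, chosen after their values were seen. miR-218-5p, which motor neurons and smooth muscle express, had 144, 127 and 179 CPM in DSS mice 1, 7 and 9 and 90.3, 83.9 and 66.8 CPM in control mice 2, 4 and 8 (log2 fold change 0.90, standard error 0.19, adjusted p = 0.0431 in edgeR). miR-129-5p, known from neurons, had 224, 203 and 170.4 CPM against 132, 116 and 130.4 CPM (log2 fold change 0.66, standard error 0.15, adjusted p = 0.0431). In both every DSS mouse was above every control mouse, while the 7 miRNAs of the neural list gave 0 calls in edgeR.

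miR-511-5p, whose hairpin lies in an intron of the macrophage mannose receptor gene Mrc1, had 5.66, 4.06 and 3.60 CPM against 1.80, 1.99 and 2.44 CPM, with DSS mouse 1 the highest (log2 fold change 1.08, standard error 0.25, adjusted p = 0.0475). The order of the DSS mice was the opposite of that of miR-223-3p. miR-467e-5p, of the rodent miRNA repeat in the gene Sfmbt2, had 1.15, 1.58 and 1.78 CPM against 3.40, 2.90 and 3.45 CPM and fell (log2 fold change -1.09, standard error 0.24, adjusted p = 0.0431). miR-669a-5p and miR-669p-5p fell as well, at 0.860, 1.01 and 1.35 CPM against 2.27, 2.29 and 2.13 CPM, and have equal counts in every library, so they may be 1 miRNA counted under both names. The copies of this repeat are near-identical and share reads, so their values are uncertain.

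Over 15 alternatives with the same grouping, the most often called miRNAs were miR-132-3p, miR-182-5p, miR-212-5p, miR-223-5p, miR-429-3p and miR-494-3p, each SDE in 11 of the 15 and with its direction kept in all 15.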
